A study of Rattus norvegicus with 3 samples.

Results

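Elastic fibres give skin, vessel wall and other connective tissue its recoil. A core of cross-linked elastin is laid down on a scaffold of microfibrils, which are polymers of fibrillin, and fibulins, emilins and microfibril-associated proteins bind to this scaffold and join it to elastin and to cells. Fibroblasts and smooth muscle cells make most of these proteins, and microfibrils also occur without elastin and hold latent growth factors of the TGF-beta family. The 10 genes described here are Eln (elastin), Fbn1 and Fbn2 (fibrillins), Mfap2, Mfap4 and Mfap5 (microfibril-associated proteins), Fbln1, Fbln2 and Fbln5 (fibulins) and Emilin1 (emilin). They were chosen by name, as the array's gene probes whose gene name, with a provisional suffix removed, was one of these or an older alias. They had 16 of the 41012 gene probes on the array. A probe named for a similar-to-fibrillin locus was taken as Fbn2 through its gene number.

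The study compared F65, a rat induced pluripotent stem (iPS) line, with mix1, a pool of cultured rat bone marrow cells and cultured primary rat ear fibroblasts. Both were untreated. The iPS samples came from 1 line, grown on irradiated mouse embryonic fibroblasts in medium with fetal bovine serum and serum replacement, and the cells of mix1 were grown with fetal bovine serum. Strain, age and sex of the animals are not given in the sources used here, nor is whether feeder cells were removed before extraction. Each of 3 samples of F65 (total RNA, Cy3) was set against mix1 (Cy5) on a 2-colour Agilent array of its own, and the arrays shared 1 slide and 1 scan. Nothing in the labels makes these separate cultures, so p-values measure the spread between the 3 samples, which may be technical. With no dye swap, an effect of the dyes cannot be told apart from a difference between the cells.

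The share of gene spots well above background was 57.1% to 61.2% per array for iPS F65 and 58.3% to 62.1% for mix1. Of 6 pluripotency markers that were measured, 5 were higher in iPS F65 and none lower, among them Sox2 (log2 ratio 3.14 ± 0.40, SD, n = 3) and Pou5f1, which encodes Oct4 and was at least 4.53-fold higher. Of 8 fibroblast markers, all 8 were lower, with Col1a1, the type I collagen gene, at -6.90 ± 0.13, and 2 of the 8, Thy1 and Postn, were not well above background in iPS F65 on any array. The summed signal of the 8 ran from 4866 to 6806 in iPS F65 and from 1189934 to 1469861 in mix1. Of 6 haematopoietic and macrophage markers, 5 were lower and none higher, with sums of 2656 to 3388 in iPS F65 and 158232 to 187645 in mix1. Of 3 smooth muscle and myofibroblast markers 2 were lower, of 4 epithelial markers 3 were higher and 1 lower, and of 2 endothelial markers 1 was higher. These counts use the brightest tested probe of each gene, by which Myh11 (-0.28) and Ptprc (-2.26) were not called. Their other tested probes were called lower, Myh11 at -6.37 and Ptprc at -2.86 and -3.35. Those were not well above background in iPS F65 on any array. By the same rules, given below, 24.5% of all genes were lower and 30.9% higher. Some markers passed the filter through 1 channel alone, among them 3 of the 4 epithelial ones and the higher endothelial one. Among markers measured in both channels, 6 of 6 fibroblast, 4 of 4 macrophage and 1 of 2 smooth muscle markers were lower. Of the others, 4 of 5 pluripotency and 1 of 1 epithelial markers were higher. For all probes measured in both channels the shares were 18.2% lower and 29.4% higher. The summed fibroblast and macrophage signals were lower in iPS F65, as were the genes described below. The part of these cell types in the results below was not tested.

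Each of the 10 genes gave a lower signal in the iPS cells than in mix1. By the brightest tested probe of each gene this ran from 2.06-fold lower for Eln to 102-fold lower for Mfap5. A dimmer probe of Fbln2 went further and has only a bound, given below. The values start from the scanner software's processed signals, which are spot intensities after background subtraction and dye normalisation. A ratio is log2 of iPS F65 over mix1, so a value below 0 means lower in the iPS cells, and a change of 1 is 2-fold. Testing was limited to probes that the 3 arrays all flagged as well above background in at least 1 channel. It was called lower or higher at an adjusted p under 0.05 (limma, Benjamini-Hochberg over all tested probes) with at least a 2-fold change. Of the 16 member probes 15 were tested, and the other is the probe of the fibrillin-like locus. All 15 were called lower in iPS F65 and none higher, against 24.1% of the 25797 probes tested on the array called lower and 31.2% called higher. Of these 15, however, 5 passed the filter through the mix1 channel alone, so they could be measured only where they differed. The 10 that were above it in both channels on every array were also all lower, with a median of -4.43. Among all 20519 probes of that kind 18.2% were called lower and 29.4% higher, and the median was 0.31. In bulk RNA, fewer cells that express a gene and less RNA of it per cell cannot be told apart.

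**Figure D1:**
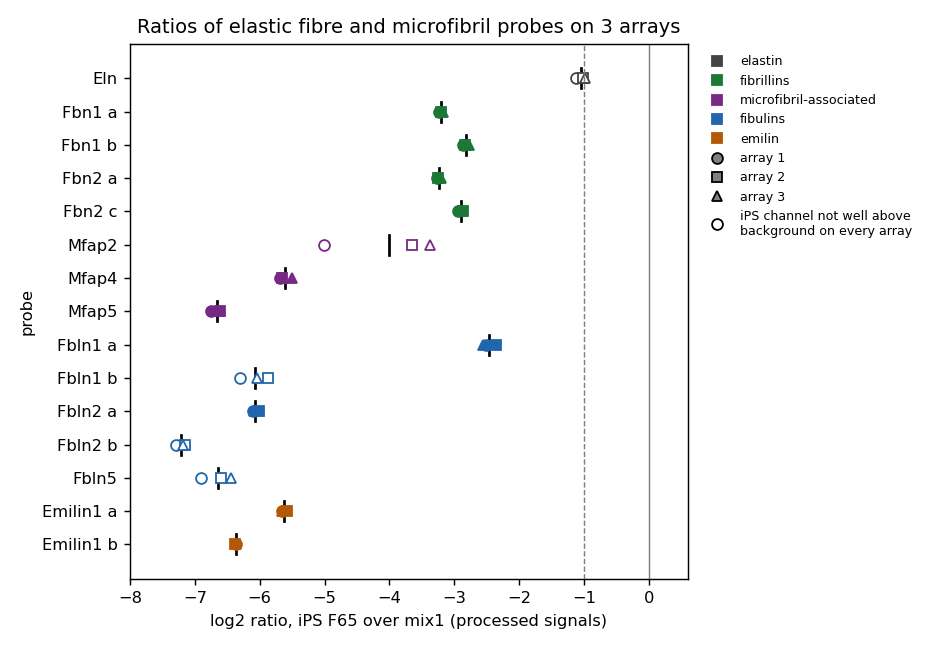
Log2 ratio of iPS F65 over mix1 (x axis) for each of the 15 tested probes (y axis), coloured by protein family, with 1 symbol per array and a black bar at the mean of 3 arrays. The dashed line marks the 2-fold limit at -1. Eln lies nearest 0, at -1.04, and Fbln2 b farthest, at -7.21, where the iPS signal was not above background, and open symbols are the 5 probes that were not well above background in iPS F65 on every array.

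Each probe is an oligonucleotide of 60 bases, so a ratio reports the transcripts that hold that stretch. Where a gene had several probes they are called a, b and c here. Some probes on which the results turn are shown as printed on the array, 5′ to 3′. They are that of Eln, with the smallest ratio, and those of Fbln1 and Emilin1, as examples of a gap within a gene. Fbln2, whose probe a is not shown, had a wider gap than Emilin1 with processed signals (1.15 against 0.74). Also shown are Fbln2 b and Fbln5, not well above background in iPS F65, and Mfap2, the least even.
Eln: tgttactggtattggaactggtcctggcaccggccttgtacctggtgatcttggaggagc
Fbln1 a: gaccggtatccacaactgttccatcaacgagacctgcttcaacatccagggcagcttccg
Fbln1 b: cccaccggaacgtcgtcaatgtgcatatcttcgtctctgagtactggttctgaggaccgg
Emilin1 a: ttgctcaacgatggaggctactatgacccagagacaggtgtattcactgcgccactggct
Emilin1 b: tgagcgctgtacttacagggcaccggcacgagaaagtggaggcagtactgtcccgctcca
Fbln2 b: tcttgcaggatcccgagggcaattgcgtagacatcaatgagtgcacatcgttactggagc
Fbln5: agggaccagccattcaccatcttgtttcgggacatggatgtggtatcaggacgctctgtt
Mfap2: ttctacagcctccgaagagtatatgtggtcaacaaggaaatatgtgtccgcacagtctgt
Across the 113 pairs of member probes from different genes, the longest run of identical bases on the same strand was 10, shared by Eln and Mfap5. GC content was lowest, 23.3%, in the untested Fbn2 b, and the median over all gene probes was 43.3%.

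Eln encodes tropoelastin, the soluble unit of the elastic core. Its probe lies at chr12:22926096-22926237 of rn3, the build that the array files' headers name and in which all probe positions here are given. The processed signal of Eln was 77.6, 97.0 and 96.2 in iPS F65 and 170, 195 and 191 in mix1 on arrays 1, 2 and 3. Every iPS value was below every mix1 value, but both cell populations gave a low signal, and the iPS channel was well above background on 2 of 3 arrays. The mean ratio was -1.04 ± 0.07 (SD, n = 3), which is 2.06-fold lower (limma, adjusted p = 9.86e-05), with a 95% interval from -1.16 to -0.93. The interval crosses the 2-fold limit. Loess-normalised mean signals gave -0.76 (with normexp background correction, in which uneven local backgrounds were replaced by the array median) and -0.74 (with no background subtraction), both short of that limit. With normexp and backgrounds as given the ratio was -0.30, which passed neither the limit nor the p threshold (adjusted p = 0.272). Of the 15 tested probes Eln had the ratio closest to 0, and 23.6% of all tested probes had a lower one.

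The fibrillins were lower by an intermediate amount, and their 4 tested probes lay close together between -3.24 and -2.82. Fibrillin-1, the product of Fbn1, is the main fibrillin of adult tissue, and fibrillin-2, the product of Fbn2, is made chiefly in development. The signal of Fbn1 a was 7001, 8127 and 8067 in iPS F65 and 65962, 74515 and 73115 in mix1. The ratio was -3.20 ± 0.03 (9.22-fold lower, adjusted p = 5.68e-06). Fbn1 b, 67 bases apart from it on chromosome 3, had signals of 16151, 18828 and 19159 in iPS F65 and 116996, 133673 and 131676 in mix1, and a ratio of -2.82 ± 0.04. Both probes were thus bright in iPS F65 as well, on every array, and neither channel overlapped the other.

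For Fbn2 a the signal was 1675, 1970 and 2025 in iPS F65 and 16060, 18708 and 18790 in mix1, a ratio of -3.24 ± 0.02 (9.45-fold lower, adjusted p = 5.59e-06). Fbn2 c had a ratio of -2.90 ± 0.04, from signals of 760 to 909 in iPS F65 and 5844 to 6747 in mix1. The probes of Fbn1 and Fbn2 interleave in the order of the ratios, and no test set one gene against the other. The third probe, Fbn2 b, lies on the same strand of chromosome 18 at 53945487 to 53945546. It was well above background in neither channel on any array, with signals of 13.6 to 17.2 in iPS F65 and 13.8 to 17.6 in mix1, and it gives no ratio for Fbn2.

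**Figure D2:**
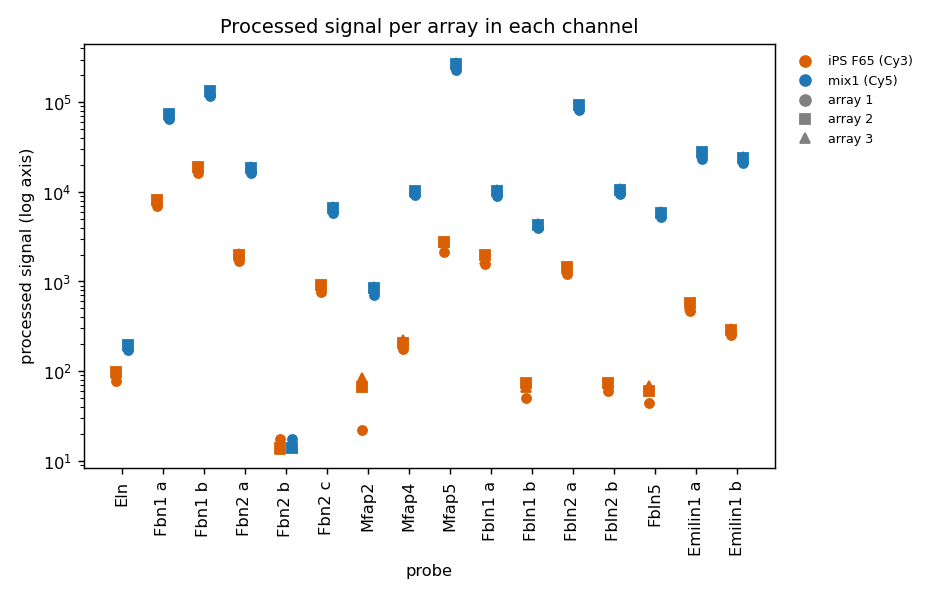
Processed signal (y axis, log scale) of each of the 16 member probes (x axis) in iPS F65 (orange) and mix1 (blue), with 1 symbol per array. Signals can be compared between channels within a probe and not between probes. In each of the 15 tested probes all mix1 points lie above all iPS F65 points, and in the untested Fbn2 b both channels lie between 13.6 and 17.6.

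The microfibril-associated genes spread more widely. Mfap5 and Mfap2 encode small glycoproteins that bind fibrillin, and Mfap4 encodes a fibrinogen-related protein that binds elastin and fibrillin. The signal of Mfap5 was 2122, 2779 and 2732 in iPS F65 and 228519, 271037 and 273298 in mix1. Its ratio was -6.67 ± 0.07 (102-fold lower, adjusted p = 5.62e-06), and 1.39% of all tested probes had a lower one. The local background of its mix1 spot was marked as uneven on all 3 arrays, and with these backgrounds replaced by the array median before normexp and loess the ratio was -6.86.

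Mfap4 gave 177, 206 and 223 in iPS F65 and 9137, 10354 and 10098 in mix1, a ratio of -5.61 ± 0.10 (49.0-fold lower, adjusted p = 6.84e-06). Mfap2 was the least even of the members. Its signal was 21.7, 67.1 and 82.7 in iPS F65 and 701, 839 and 862 in mix1, so the arrays gave ratios of -5.01, -3.65 and -3.38. The low value is that of array 1, on which the iPS signal was not well above background. The mean was -4.01 ± 0.87 (adjusted p = 0.00186), or -3.51 without array 1, and it was -2.93 ± 0.24 after normexp with uneven backgrounds replaced and loess. With normexp and backgrounds as given it was at -1.34 and not called (adjusted p = 0.154). Mfap2 had a ratio below 0 on each array, with an interval of -5.24 to -2.79 with processed signals, and its size depended on the processing.

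Fibulins are calcium-binding glycoproteins that link elastin, fibrillin and basement membranes, and Fbln5 encodes a fibulin that binds tropoelastin and integrins. Fbln5 had signals of 43.8, 59.4 and 68.0 in iPS F65, not well above background on any array, and of 5238, 5773 and 5932 in mix1. It has only a bound, at least 83.5-fold lower, with a measured ratio of -6.65 ± 0.23 (adjusted p = 1.58e-05). A bound sets the mean mix1 level against a level of the iPS channel, and without a dye swap it is open to dye bias. On each array that level was the higher of the probe's own signal and the dimmest signal that still counted as above background. That dimmest level is approximate, since on array 3 Fbln1 b was flagged at 66.1 in iPS F65 and Fbln2 b was not at 74.2. All bounds given here, also those of marker and list genes, hold for processed signals only. After normexp and loess the measured ratio of Fbln5 was -5.83 with uneven backgrounds replaced. It was -3.52 and not called (limma, adjusted p = 0.0605) with backgrounds as given. Both are smaller folds than its bound.

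Fbln2 gave large ratios with both of its probes. Fbln2 a, at chr4:125685069-125685128, had signals of 1210, 1449 and 1370 in iPS F65 and 82893, 93453 and 93147 in mix1, a ratio of -6.07 ± 0.05 (67.0-fold lower, adjusted p = 5.31e-06). Fbln2 b had 59.9, 73.6 and 74.2 in iPS F65, not well above background on any array, and 9388, 10488 and 10817 in mix1. With processed signals it was at least 139-fold lower (measured ratio -7.21 ± 0.07), so its exact ratio and its rank are not measured. The gap between the 2 probes, 1.15 ± 0.05, depended on the processing. After normexp with uneven backgrounds replaced and loess, Fbln2 b was at -6.48, a smaller fold than the bound, and the gap was 0.14. With backgrounds as given it was at -4.18, closer to 0 than Fbln2 a (-5.56).

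Fbln1 differed most between its probes. Fbln1 is known to be made as splice isoforms that differ at the end of the protein, and the sources used here do not say which of them each probe detects. Fbln1 a, at chr7:123279386-123279445, had signals of 1566, 1992 and 1775 in iPS F65 and 8900, 10164 and 10432 in mix1. Its ratio was -2.47 ± 0.11 (5.54-fold lower, adjusted p = 2.61e-05), the smallest after Eln. Fbln1 b, at chr7:123320922-123320981, lies 41476 bases away.

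The signal of Fbln1 b was 49.9, 73.5 and 66.1 in iPS F65 and 3923, 4303 and 4373 in mix1, with the iPS channel well above background on arrays 2 and 3. Its ratio was -6.07 ± 0.21 (67.3-fold lower, adjusted p = 1.60e-05). The 2 probes were apart by 3.79, 3.52 and 3.49 on the 3 arrays, a mean of 3.60 ± 0.16, which is many times the spread between arrays. The gap was 2.42 after normexp with uneven backgrounds replaced and loess, and 0.87 with backgrounds as given, where Fbln1 b was not called (-3.15, adjusted p = 0.0714). By its brightest probe, Fbln1 a, the gene stood with the fibrillins, and by its other probe with Fbln2.

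Emilin1 encodes a glycoprotein of the interface between elastin and microfibrils, which also restrains TGF-beta processing. Emilin1 a gave 469, 581 and 536 in iPS F65 and 23472, 27793 and 27172 in mix1, a ratio of -5.63 ± 0.04 (49.5-fold lower, adjusted p = 5.31e-06). Emilin1 b, at chr6:25442449-25442508 and 13 bases from it, gave 254, 287 and 295 in iPS F65 and 21000, 23835 and 24244 in mix1, a ratio of -6.37 ± 0.01 (82.6-fold lower). Both were measured above background in each channel of each array. They differed by 0.74 ± 0.05. The gap was 0.64 after normexp with uneven backgrounds replaced and loess, and 0.27 with backgrounds as given.

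Among the 10 probes measured in both channels the ratios ran, from lowest to highest, Mfap5, Emilin1 b, Fbln2 a, Emilin1 a, Mfap4, Fbn2 a, Fbn1 a, Fbn2 c, Fbn1 b and Fbln1 a. In 8 of the 9 neighbouring pairs the gap was larger than the larger SD of the pair, and Emilin1 a and Mfap4 did not differ beyond their spread (0.02, with an SD of 0.10 for Mfap4). That SD is the spread between arrays and leaves out differences between oligonucleotides. Probes of the same gene differed by 0.34 (Fbn2) to 3.60 (Fbln1). Small gaps, such as 0.04 between Fbn2 a and Fbn1 a, therefore order the probes and do not rank the genes. The widest gap, 2.37, lay between Mfap4 and Fbn2 a. The order was the same after normexp with uneven backgrounds replaced and with no background subtraction. With backgrounds as given, Fbln2 a and Emilin1 b changed places, as did Fbn1 a and Fbn2 a, and Fbn1 b and Fbn2 c. The 5 other probes are not ranked, since the iPS channel did not measure them on every array. Several genes had 2 probes, so the ratios are not independent of each other. By the brightest tested probe of each gene all 10 genes were lower, with a median of -4.81, and 7 of the 10 were measured in both channels. Of all 21747 genes 24.5% were lower and 30.9% higher by that rule, and their median was 0.25.

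**Figure D3:**
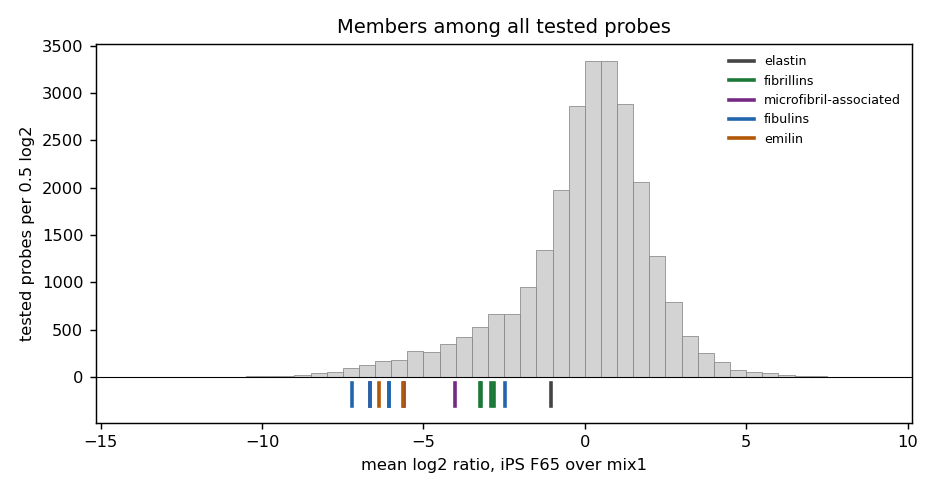
Number of tested probes (y axis, bins of 0.5) by their mean log2 ratio of iPS F65 over mix1 (x axis), over all 25797 probes, with the 15 member probes as coloured ticks under the axis. The ticks lie between -7.21 and -1.04, while the median of all tested probes is 0.28.

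The ratios depend on how background and dyes were treated, and most where the iPS signal was dim. After normexp with uneven backgrounds replaced and loess, the 10 probes measured in both channels moved by at most 0.40. The 5 others moved towards 0 by 0.28 to 1.08. With backgrounds as given, the 10 moved towards 0 by 0.07 to 1.75 and the 5 others by 0.74 to 3.13, and Eln, Fbln1 b, Fbln5 and Mfap2 were not called. In each of the 12 alternatives that kept a probe, its ratio was below 0. The deposited values and the setting without a fold limit repeat the same ratios, so they add nothing to this.

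**Figure D4:**
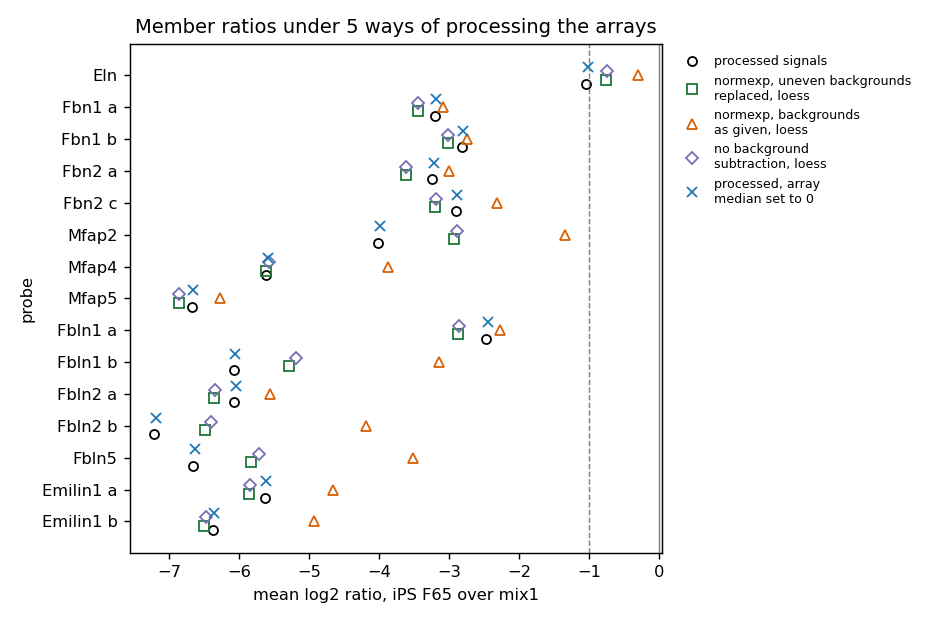
Mean log2 ratio of iPS F65 over mix1 (x axis) of the 15 tested probes (y axis) under 5 ways of processing the arrays, with a dashed line at the 2-fold limit of -1. Eln passes that limit with processed signals (-1.04) and with array medians set to 0 (-1.02), and not with the other 3. Normexp with backgrounds as given (orange triangles) lies nearest 0 in all probes.

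Genes that work with the members in elastic fibre assembly, binding and turnover were mostly lower too. The last of the 7 lists given here holds genes that share only the Mfap name, and the others were fixed by role. All were chosen with earlier results of these data known. Genes are given by their brightest tested probe, by which 24.5% of all genes were called lower and 30.9% higher. Some genes passed the filter only through the channel where they were high, so the counts among genes measured in both channels are given too. Among all probes measured in both channels, 18.2% were called lower and 29.4% higher. Lysyl oxidases cross-link elastin and collagen, and all 5 were lower, with a median of -6.89, including the 3 measured in both channels. Lox was at -8.73 ± 0.04, with signals of 317 to 392 in iPS F65 and 136674 to 162783 in mix1. Loxl3 was at least 210-fold lower by that probe, but its other probe, well above background in both channels, was at -1.12. Loxl4 had a bound of only 1.52-fold.

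Latent TGF-beta binding proteins sit on microfibrils, which hold latent growth factors of the TGF-beta family. All 7 genes of the list of these proteins and the TGF-beta ligands were lower, with a median of -6.71, including the 5 measured in both channels. Ltbp2, which binds fibrillin, was at least 211-fold lower, the ligand gene Tgfb3 was at -7.39 ± 0.06, and Ltbp4, which aids elastin assembly, was at -2.10 ± 0.11. Among fibulins, emilins and multimerins outside the members 5 of 6 measured genes of 9 were lower and none higher (median -3.32), and of the 4 measured in both channels 3 were lower. Efemp2, a fibulin needed for elastic fibres, was at -5.39 ± 0.02, Efemp1 at -2.77 ± 0.06 and Hmcn1, which encodes the giant protein hemicentin, at least 8.48-fold lower. Fbln7 was the exception, at -0.09 ± 0.09 (limma, adjusted p = 0.129). Its signal was low in both channels, 71.7 to 112 in iPS F65 and 81.6 to 114 in mix1, which limits that ratio.

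Of 11 measured genes of the list of ADAMTS proteins, ADAMTS-like proteins and microfibril-binding proteoglycans, 10 were lower and 1 higher, with a median of -2.90. Of these, 5 passed through 1 channel alone, 4 of the lower ones and the higher one, and the 6 measured in both channels were all lower. The proteoglycan genes Dcn (-9.51 ± 0.04) and Bgn (-7.47 ± 0.12) were lowest. The gene higher in iPS F65 was Adamts19, a metalloproteinase gene, with signals of 743, 856 and 855 against 20.8, 17.7 and 19.1 in mix1, where it was not well above background. It was at least 12.2-fold higher. Proteases that can cut elastin were lower in all 7 measured cases (median -7.57), 5 of them measured in both channels, with Ctsk, which encodes cathepsin K, at -8.28 ± 0.59, the gelatinase gene Mmp2 at -7.84 ± 0.07 and Ctsl at -2.95 ± 0.03.

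All 9 measured receptor genes of 11 were lower, with a median of -3.32, and 7 of them were measured in both channels. The integrin gene Itgb5 was at -5.08 ± 0.11, Itga8 was at least 6.93-fold lower, and Neu1, a subunit of the elastin receptor, was at -1.24 ± 0.02. Mfap1a, whose product is a splicing factor, and Mfap3, which encodes a membrane glycoprotein, carry the name of the microfibril-associated genes and were both higher. Mfap1a had signals of 18163, 20356 and 20106 in iPS F65 and 7172, 8254 and 8164 in mix1, a ratio of 1.31 ± 0.02 (adjusted p = 1.09e-05). Mfap3 was at 1.59 ± 0.11. After normexp with uneven backgrounds replaced and loess, 1 of the 2 was still called higher.

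**Figure D5:**
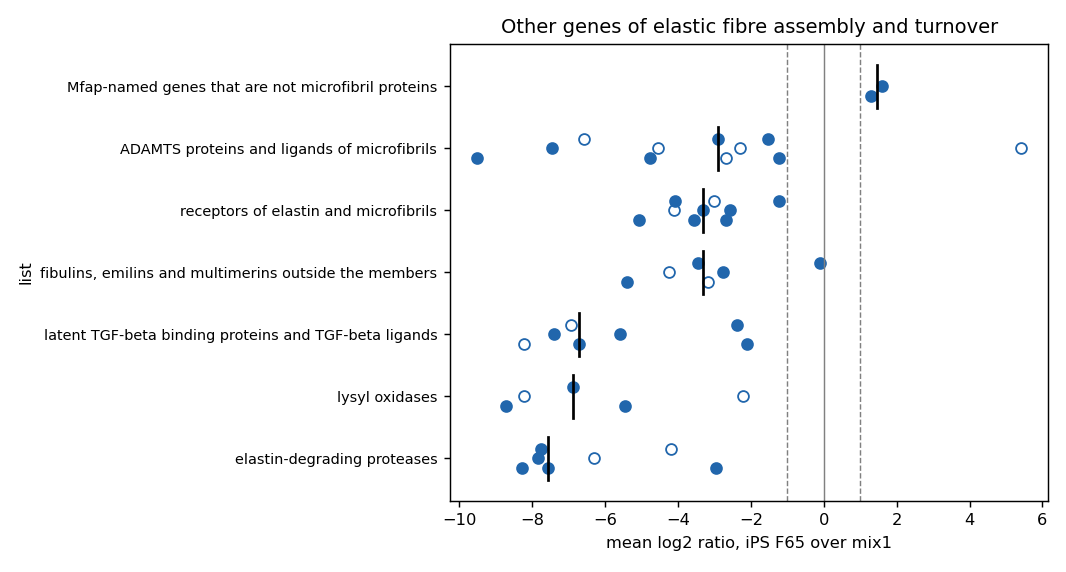
Mean log2 ratio of iPS F65 over mix1 (x axis) of each measured gene in 7 lists (y axis), with a black bar at the list's median and dashed lines at the 2-fold limits. Filled points are genes measured above background in each channel of each array. Medians run from -7.57 for elastin-degrading proteases to 1.45 for the Mfap-named genes that are not microfibril proteins.

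Promoter sequence was available from RefSeq (build GRCr8) for 6 of the 10 genes, Fbn1, Fbn2, Fbln2, Fbln5, Mfap2 and Mfap5. In the 250 bases before the start used, the GC box GGGCGG (either strand) was found in 3 of the 6, against 30.5% of 33469 windows of the same length. Those 3 windows (Fbln2, Fbln5 and Mfap2) and that of Fbn1 overlap an annotated part of their own genes. They are therefore not wholly upstream sequence. TATAAA was found in none, against 12.9%, and the AP-1 site TGANTCA in none, against 6.3%. CCAAT was found in 1 (34.0% of all windows), the TEAD site CATTCC in 1 (12.1%) and the SMAD-binding letters CAGACA in 1 (17.2%). The windows of Fbn2 and Mfap5, which overlap no annotated part of their genes, are shown as an example of a fibrillin with the middling ratio and of the gene with the lowest ratio among those bright in both channels. Capitals mark matches to any of these 6 motifs on either strand, and a match is not evidence of binding.
Fbn2, chr18:53901993-53902242, minus strand: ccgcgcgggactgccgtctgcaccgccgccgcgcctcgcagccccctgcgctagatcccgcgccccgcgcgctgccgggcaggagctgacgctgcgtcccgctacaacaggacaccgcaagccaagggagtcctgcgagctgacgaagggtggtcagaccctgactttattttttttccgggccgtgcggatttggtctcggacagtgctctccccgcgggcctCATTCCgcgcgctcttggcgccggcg
Mfap5, chr4:157399669-157399918, plus strand: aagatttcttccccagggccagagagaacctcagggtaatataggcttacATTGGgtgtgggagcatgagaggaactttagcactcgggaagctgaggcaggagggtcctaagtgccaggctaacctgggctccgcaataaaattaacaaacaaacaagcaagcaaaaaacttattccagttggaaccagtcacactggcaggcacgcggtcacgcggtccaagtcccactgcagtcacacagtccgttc
The window of Fbn2 had a GC content of 70.0% and 1 match, to CATTCC. That of Mfap5 had 51.6%, close to the median of all windows (51.2%), and 1 match, to CCAAT on the other strand.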

How the data were processed

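The authors' scanner output came from Agilent Feature Extraction 9.5.3.1. Per the file headers, each channel's intensity is given unnormalized (mean signal, local background) and processed, that is detrended, background-subtracted and dye-normalized by linear and LOWESS scaling, with surrogate values for spots near background. The log2 ratios that the authors deposited as a value table equal log2 of Cy3 over Cy5 processed signal, within 3.11e-06 for 41012 probes, and were used as an alternative. Outlier spots, 204 to 213 on each array, were dropped, spots of 1 probe were averaged, and no spot was saturated. Mix1 is 1 control sample, so mean ratios were tested against 0 with limma 3.58.1 (R 4.3.3), which leaves out the control's spread. The median ratio was 0.28 over all tested probes and was not subtracted. The number of arrays, 3, limits the precision. Normexp used an offset of 50. Bounds used channel levels after Aquantile normalization. Probes were named by gene name (12605), accession (3762), older name (3704) or gene number (1205) through RefSeq. The other 19736 kept the name in the file without a match. Each such name counted as a gene in the shares over all genes. Members, lists, tests and the rule for named genes were chosen with earlier results of these data known. That rule took all member probes, the 2 lowest and the highest called gene of each list, and Col1a1, Pou5f1, Sox2 and Acta2, which had no probe of that name. Fbln7, the second Loxl3 probe and the probes of Myh11 and Ptprc were named after their values were seen. The fit was tested on simulated ratios.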

Additional observations from a re-analysis of the deposited data

How the results depend on the processing

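Every tested member kept a ratio below 0 under each of the 12 alternatives that kept it, but 4 of the 15 lost their call under at least 1 of them. Of 429 values under alternatives, 398 kept their direction and call or moved by less than the limit set for them. That tally includes agreement fixed in advance. The deposited ratios equal those from processed signals within 3.11e-06, and the setting without a fold limit reuses the same fit. With normexp, uneven backgrounds replaced and loess, the members' median was -5.28, Eln was at -0.76, 4752 probes were called higher on the array and 1 Mfap-named gene was higher. With no background subtraction these were -5.18, -0.74, 4751 and 1. The share of called probes that were higher was 56.5% with processed signals and 41.9% and 42.0% with these settings, while the median of all tested probes went from 0.28 to -0.06 in both. With normexp and backgrounds as given, the members' median was -3.15, and Eln (-0.30), Fbln1 b (-3.15), Fbln5 (-3.52) and Mfap2 (-1.34) were not called, with adjusted p of 0.272, 0.0714, 0.0605 and 0.154 (limma, Benjamini-Hochberg). In that setting 2358 probes were called lower and 2790 higher, the ADAMTS list had 4 lower and 0 higher, the fibulin list 2 lower, the latent TGF-beta binding protein list 4 lower and the Mfap-named list 1 higher. The cause was not tested. Keeping probes above background in both channels gave a members' median of -4.43, 3740 probes called lower, 6 lower and 0 higher in the ADAMTS list and 3 lower in the fibulin list, with fewer probes tested. Without a filter on dim probes the median was -4.81, and 1 Mfap-named gene was lower and 1 gene of the fibulin list higher. Without a fold limit 10504 probes were lower and 14172 higher. Leaving out 1 array at a time gave Eln ratios from -1.07 to -1.0 and Mfap2 ratios from -4.33 to -3.51, and 0 to 1 Mfap-named genes lower, the 1 without array 1. Without array 1 Mfap2 was at -3.51. Signal near background limits Eln, Mfap2, Fbln5, Fbln1 b and Fbln2 b. No paired analysis was possible because all samples belong to 1 group, set against a common control on the same array.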
